A study of Homo sapiens with 18 samples.

Results

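The genes described here are 10 of the 43735 genes in the count table, all of them genes of amino acid transport and synthesis that are placed under the transcription factor ATF4: *ASNS*, *PSAT1*, *PHGDH*, *PSPH*, *SHMT2*, *MTHFD2*, *SLC7A5*, *SLC7A1*, *SLC38A2* and *SLC1A5*. They were chosen by symbol, and all 10 had a row in the table and passed the filter on low counts. RNA was sequenced from 18 cultures of the multiple myeloma lines MM1S, which is sensitive to the glucocorticoid dexamethasone, and MM1R, which is resistant to it. In each line 3 cultures were untreated, 3 received 5 µM RSL3 for 3 h, and 3 received 2 µM ferrostatin-1 (Fer-1) 2 h before the same RSL3 treatment. RSL3 blocks GPX4, the enzyme that clears lipid peroxides, and so triggers ferroptosis, whereas Fer-1 traps lipid radicals and holds ferroptosis back. The replicates were cell passages 4, 6 and 7 of MM1R and passages 16, 22 and 23 of MM1S, so each treatment was compared in the same passages. No group received Fer-1 alone, and no vehicle was named for the untreated cells, so the effect of Fer-1 itself and its effect on the response to RSL3 cannot be told apart.

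ATF4 is the transcription factor of the integrated stress response. When a stress sensor kinase phosphorylates eIF2α, most translation slows while *ATF4* mRNA is translated more, and ATF4 with a C/EBP partner binds composite C/EBP-ATF response elements in its target genes. Many of those targets import amino acids or make them, and plasma cell tumours, which secrete large amounts of protein, depend on that supply. The 10 genes fall into the serine pathway (*PHGDH*, *PSAT1*, *PSPH*), the mitochondrial folate cycle that serine feeds (*SHMT2*, *MTHFD2*), asparagine synthesis (*ASNS*), and the plasma membrane carriers (*SLC7A5*, *SLC7A1*, *SLC38A2*, *SLC1A5*).

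The promoters are shown first, because the C/EBP-ATF element is what would tie these genes to ATF4 by sequence. RefSeq promoter windows of GRCh38.p14, from 250 bases before to 50 bases after a start, were found for 8 of the 10 genes, and *PSPH* and *SHMT2* had no entry. Both strands were searched for the core TGATGNAA, which was present in 3.62% of 35116 promoters. The 8 genes have 11 promoters, and 3 of the 11 held a match, 1 each of *ASNS*, *SLC7A1* and *SLC1A5*. In the 250 bases before the start alone it was 2 of 11, where the share of all promoters was 3.14%. The E-box CACGTG, a separate motif that overlapped none of those matches, was present in 7.26% of promoters and in 2 of the 11, 1 each of *SLC7A5* and *SLC1A5*. In the sequences below, read 5′ to 3′ on the gene's strand, the match is in capitals. The *PSAT1* sequence, from the gene with the largest difference after Fer-1 and RSL3 in MM1R, is shown as a promoter in which neither motif was found.
ASNS, chr7:97872409-97872528, minus strand, match at positions -68 to -61 from the start: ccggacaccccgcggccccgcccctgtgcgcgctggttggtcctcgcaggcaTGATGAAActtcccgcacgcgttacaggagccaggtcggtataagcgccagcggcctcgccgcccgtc
SLC7A1, chr13:29595663-29595692, minus strand, match at positions 8 to 15 after the start: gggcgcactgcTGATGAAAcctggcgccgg
SLC1A5, chr19:46784878-46784937, minus strand, match at positions -97 to -90 from an alternative start: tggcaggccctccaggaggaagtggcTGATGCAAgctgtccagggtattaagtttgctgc
SLC1A5, chr19:46787310-46787369, minus strand, E-box at positions -50 to -45 from another start: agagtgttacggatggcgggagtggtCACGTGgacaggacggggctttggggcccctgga
SLC7A5, chr16:87869605-87869664, minus strand, E-box at positions -130 to -125 from the start: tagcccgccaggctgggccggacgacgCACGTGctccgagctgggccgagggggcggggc
PSAT1, chr9:78297005-78297124, plus strand, no match: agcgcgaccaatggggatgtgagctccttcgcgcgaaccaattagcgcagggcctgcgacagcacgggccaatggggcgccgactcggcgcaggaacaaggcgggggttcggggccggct
A match is a description of these letters and not a bound site. Elements outside these windows or with other letters were not searched for, so a gene without a match may still have one. Binding of ATF4 was not measured in these libraries.

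The 18 libraries held 17635438 to 19368343 counts each, and 14281 genes were tested. All 8 plasma cell markers examined were expressed in every library, at 41 to 1650 CPM (counts scaled to a common library size by TMM). Among 11 markers of other cell types, *CD3E* reached 11.5 CPM, *COL1A1* 19.5 CPM and *EPCAM* 1.51 CPM, and the others did not exceed 0.382 CPM in any library. Of the libraries, 2 stood apart. MM1R Fer-1 and RSL3 replicate 2 carried genes that separate the lines at a median of 49.3% of their MM1S level (13 genes), against -0.299% to 0% in the other MM1R libraries. Its *NR3C1*, which encodes the glucocorticoid receptor, was at 50.2 CPM, where the other MM1R libraries had 13.8 to 22.3 CPM. This library may hold material of both lines, which cannot be told apart here from other causes. MM1S RSL3 replicate 1 had the lowest TMM scaling factor, 0.864, where the next lowest was 0.926. Its *NR3C1* was at 392 CPM, against 102 and 97.6 CPM in MM1S RSL3 replicates 2 and 3. Its line genes stood at a median of 75% of their MM1S level (16 genes), against 89.6% to 109% in the other MM1S libraries. The cause was not tested. The paper calls the replicates biologically independent, and the labels tell them apart by passage number only. The p-values measure the spread between these libraries.

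Levels were first compared between the genes per transcript length, as RPKM, which divides CPM by the kilobases of the canonical transcript, because CPM depends on length. In untreated MM1R cells *SLC1A5* stood at 178 ± 18.1 RPKM and *SHMT2* at 165 ± 11.1 RPKM (SD, n = 3), and these did not differ beyond their spread. *SLC7A5* followed at 74.3 ± 6.74, *SLC38A2* at 66.9 ± 29.9 and *MTHFD2* at 60.2 ± 4.16 RPKM, whose ranges overlapped in part. *PSAT1* was at 45.8 ± 4.80, *PHGDH* at 23.6 ± 3.11, *PSPH* at 14.7 ± 1.03 and *SLC7A1* at 11.5 ± 1.43 RPKM. *ASNS* was far below the rest, at 0.583 ± 0.153 RPKM. A gene on the same strand overlaps *ASNS*, and how shared reads were counted is not given. Whether this affects its level was not tested. In untreated MM1S cells *SLC1A5* and *SHMT2* were again at the top, at 218 ± 64.6 and 195 ± 56.0 RPKM, and *ASNS* at the bottom, at 0.860 ± 0.397 RPKM. The deposited counts of *ASNS* were 18 to 99 per library, against at least 441 for every other member, so counting error weighs most on *ASNS*.

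RSL3 was compared with no treatment to ask whether the block of GPX4 changes the mRNA of these genes. The fitted log2 fold change was above 0 for all 10 genes in both lines. Its median over the 10 genes was 0.712 in MM1R and 0.617 in MM1S, where the median over all genes tested was 0.000226 and 0.0022. With edgeR's quasi-likelihood test and Benjamini-Hochberg adjustment over all genes (FDR), *MTHFD2* and *SLC7A1* rose in MM1R cells, which makes 2 of 10 genes where 2% of all genes were called higher. In MM1S cells *MTHFD2*, *SLC7A1* and *SLC7A5* rose, 3 of 10 where the share of all genes was 2.5%. Averaged over both lines, 7 of the 10 rose, against 8.7% of all genes, and *PHGDH*, *PSPH* and *SHMT2* did not pass. Each MM1R RSL3 library lay above each untreated MM1R library for 9 of 10 genes, all but *SLC38A2* (13.5% of all genes), and the same held in MM1S for 4 genes, *MTHFD2*, *SLC38A2*, *SLC7A1* and *SLC7A5* (12.6% of all genes). None of the 10 genes was called lower, where 1.36% of all genes were in MM1R, 1.17% in MM1S and 6.81% on average. Both *MTHFD2* and *SLC7A1* were called in each line, 2 of 10 where 1.22% of all genes were called higher in each. In RNA of whole cultures, a change in the share of some cells and a change of RNA per cell cannot be told apart.

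The choice of model moved the calls in a single line. With the passage as a block in the edgeR fit, 7 of 10 genes were called in MM1R, where 6.83% of all genes were called higher, 7 in MM1S (6.79% of all genes), and all 10 when averaged (14.9% of all genes). Fer-1 and RSL3 together rose above untreated for 10 and 8 genes in that fit (11.5% and 7.16% of all genes). Without the block, the count fell to 0 in MM1R when RSL3 replicate 1 or 3 or untreated replicate 1 or 3 of MM1R was left out, and to 0 in MM1S when RSL3 replicate 1 or untreated replicate 1 or 3 of MM1S was left out. The shares of all genes called in these fits are not given here.

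**Figure D1:**
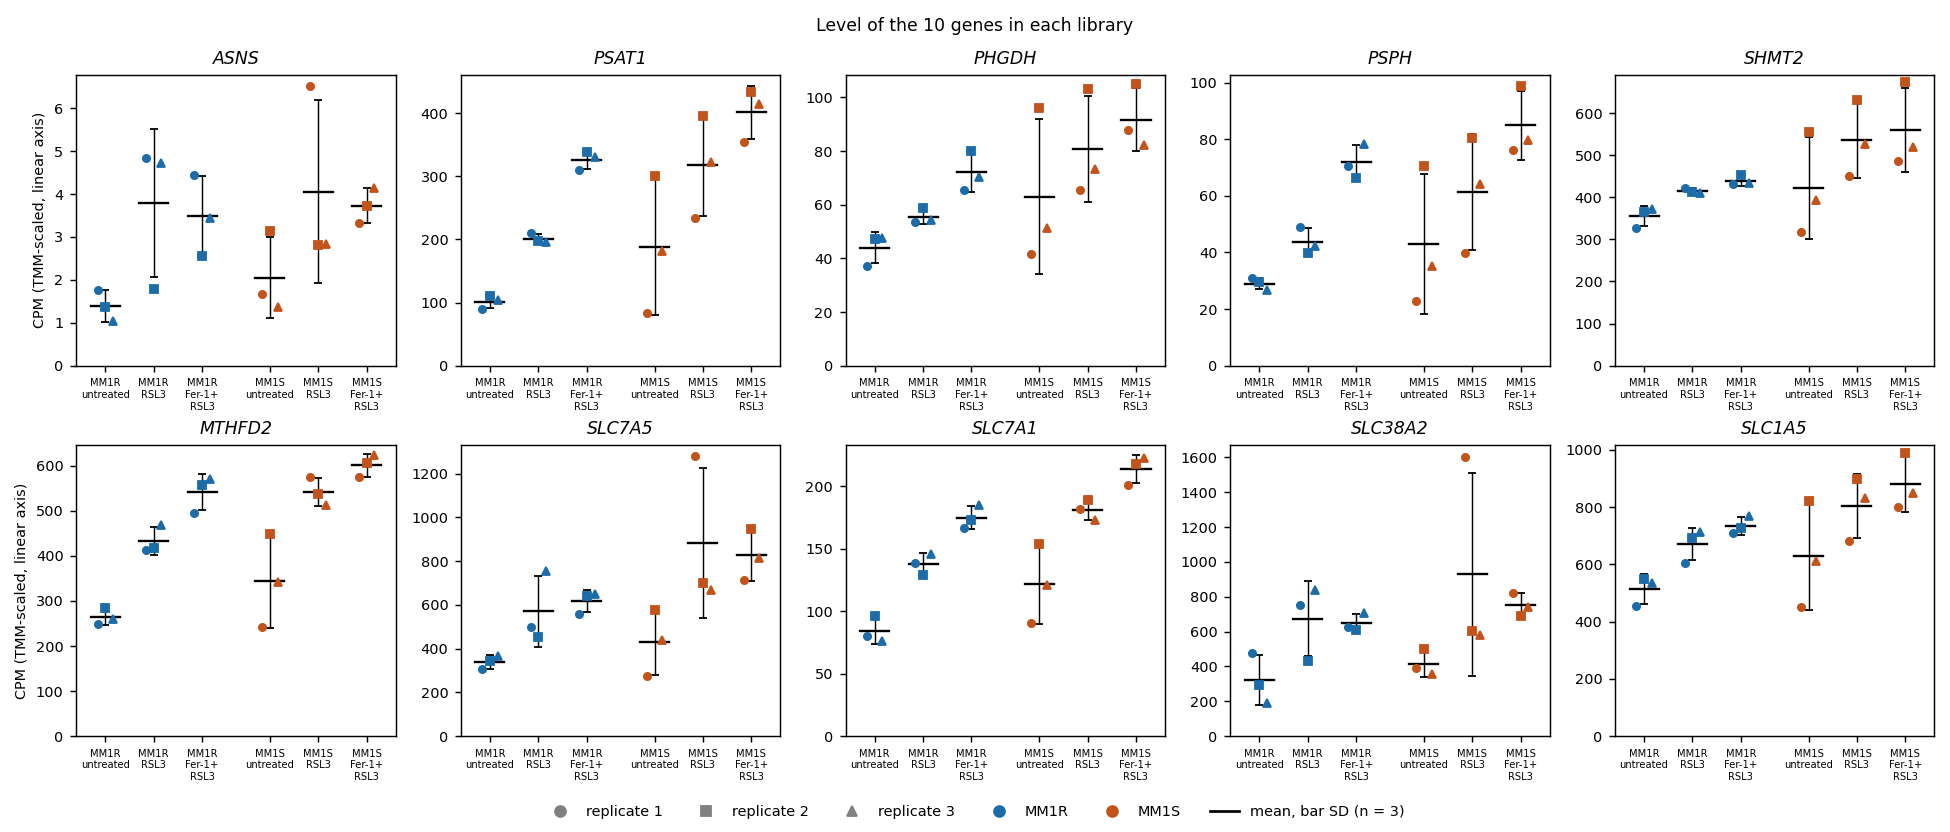
CPM of each of the 10 genes (linear y axis) in each library of the 6 groups (x axis), with 1 symbol per replicate, a line for the mean and a bar for the SD (n = 3). In MM1R the RSL3 libraries lie above the untreated ones for every gene but *SLC38A2*, and MM1S untreated replicate 2 (square) lies above the other untreated MM1S libraries for all 10 genes.

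The serine pathway starts from the glycolytic intermediate 3-phosphoglycerate, which PHGDH oxidises as the committed step. *PHGDH* (chr1:120191034-120286841 of GRCh37, plus strand) was at 37.3, 47.1 and 47.6 CPM in untreated MM1R replicates 1 to 3, at 53.6, 58.7 and 54.4 CPM after RSL3, and at 65.6, 80.1 and 70.4 CPM after Fer-1 and RSL3. These 3 MM1R groups did not overlap and stood in that order. In MM1S cells it was at 41.6, 96.1 and 51.5 CPM untreated, at 65.5, 103 and 73.5 CPM after RSL3 and at 87.9, 105 and 82.3 CPM after both, so that untreated replicate 2 lay inside the treated ranges. The log2 fold change of RSL3 over untreated was 0.34 (SE 0.24, FDR = 0.494) in MM1R and 0.35 (SE 0.23, FDR = 0.442) in MM1S. Averaged over the lines it was 0.35 (FDR = 0.175), and with the passage as a block 0.37 (FDR = 0.00969). Fer-1 and RSL3 over untreated was 0.71 (FDR = 0.0698) in MM1R and 0.54 (FDR = 0.215) in MM1S, and both passed with the block, at FDR = 0.00257 and 0.00823.

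PSAT1, an aminotransferase, takes its nitrogen from glutamate for the next step. *PSAT1* (chr9:80912041-80945009, plus strand) was at 89.4, 110 and 104 CPM in untreated MM1R cells, at 210, 197 and 196 CPM after RSL3, and at 310, 338 and 331 CPM after Fer-1 and RSL3. In MM1S the values were 83.5, 300 and 181 CPM untreated, 234, 396 and 322 CPM after RSL3, and 354, 434 and 415 CPM after both. The 3 MM1R groups were separate and in the same order as for *PHGDH*, and in MM1S the RSL3 range overlapped its neighbours on both sides. RSL3 over untreated gave a log2 fold change of 0.99 (SE 0.29, FDR = 0.0736) in MM1R and 0.75 (SE 0.29, FDR = 0.165) in MM1S, and the average, 0.87 (SE 0.21), passed (FDR = 0.0100). With the passage block both lines passed, at FDR = 0.00714 in MM1R and 0.0153 in MM1S. Fer-1 and RSL3 over untreated was 1.69 (SE 0.30, FDR = 0.00309) in MM1R, the largest of the 10 genes, and 1.09 (SE 0.29, FDR = 0.0428) in MM1S. The MM1S call held in 4 of 18 fits that each left out 1 library, those without an MM1S RSL3 library or without untreated MM1S replicate 2, and its log2 fold change ranged from 0.74 to 1.61 (FDR up to 0.127).

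PSPH removes the phosphate to release serine. *PSPH* (chr7:56078744-56119297, minus strand) was at 30.8, 29.4 and 26.8 CPM in untreated MM1R cells, at 49.0, 39.8 and 42.4 CPM after RSL3 and at 70.7, 66.4 and 78.3 CPM after Fer-1 and RSL3. The MM1S levels were 22.8, 70.5 and 35.2 CPM, then 39.7, 80.3 and 64.1 CPM, then 76.2, 98.8 and 79.6 CPM. In MM1R the order untreated, RSL3, Fer-1 and RSL3 held without overlap, and in MM1S untreated replicate 2 overlapped the RSL3 range. RSL3 over untreated was 0.59 (SE 0.30, FDR = 0.309) in MM1R and 0.52 (SE 0.30, FDR = 0.362) in MM1S on the log2 scale. With the passage block these were called, at FDR = 0.0446 and 0.0418. Fer-1 and RSL3 over untreated was 1.31 (SE 0.30, FDR = 0.0127) in MM1R and 0.99 (SE 0.30, FDR = 0.0693) in MM1S. The MM1R call was lost only without untreated MM1R replicate 3 (FDR = 0.0553), and the MM1S value was called with the block (FDR = 0.00139).

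The mitochondrial folate enzymes SHMT2 and MTHFD2 take a carbon unit from serine and oxidise it for purine synthesis. *SHMT2* (chr12:57623356-57628718, plus strand) was at 328, 365 and 373 CPM in untreated MM1R cells, 423, 412 and 410 CPM after RSL3 and 431, 452 and 434 CPM after Fer-1 and RSL3. For MM1S the levels were 317, 554 and 394 CPM, then 451, 631 and 527 CPM, then 486, 673 and 519 CPM. *SHMT2* had the smallest RSL3 difference of the 10 genes in each line, with a log2 fold change of 0.23 (SE 0.17, FDR = 0.534) in MM1R and 0.35 (SE 0.17, FDR = 0.281) in MM1S. The MM1S value passed with the passage block (0.37, FDR = 0.0128), as did Fer-1 and RSL3 over untreated in both lines, at 0.31 (FDR = 0.0152) and 0.43 (FDR = 0.00390).

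*MTHFD2* (chr2:74413299-74444692, plus strand) was at 249, 285 and 261 CPM in untreated MM1R cells, at 414, 418 and 469 CPM after RSL3 and at 496, 557 and 571 CPM after Fer-1 and RSL3. MM1S cells had 242, 448 and 341 CPM, then 574, 538 and 513 CPM, then 574, 606 and 624 CPM. All 3 groups were separate in MM1R, and in MM1S the untreated libraries lay below all treated ones. The rise after RSL3 was 0.71 (SE 0.16, FDR = 0.0204) in MM1R and 0.66 (SE 0.16, FDR = 0.0272) in MM1S on the log2 scale. Leaving out MM1R RSL3 replicate 1 or 3 or any untreated MM1R replicate ended the MM1R call (FDR up to 0.0816), and leaving out MM1S RSL3 replicate 1 or untreated replicate 1 or 3 ended the MM1S call (FDR up to 0.114). The log2 fold change stayed at 0.66 to 0.76 in MM1R and at 0.46 to 0.90 in MM1S. The rise over untreated after Fer-1 and RSL3 was 1.03 (SE 0.16, FDR = 0.00121) in MM1R and 0.81 (SE 0.16, FDR = 0.00661) in MM1S, and was called in each of the 18 fits that left out 1 library.

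ASNS makes asparagine from aspartate and glutamine, and its promoter element, shown above, is a textbook ATF4 site. *ASNS* (chr7:97480989-97501854, minus strand) was at 1.77, 1.36 and 1.04 CPM in untreated MM1R cells, at 4.84, 1.79 and 4.73 CPM after RSL3 and at 4.45, 2.55 and 3.44 CPM after Fer-1 and RSL3. In MM1S it was at 1.66, 3.13 and 1.36 CPM, then 6.51, 2.82 and 2.83 CPM, then 3.32, 3.72 and 4.14 CPM. RSL3 replicate 2 of MM1R, at passage 6, stood just above the highest untreated library. RSL3 over untreated was 1.44 (SE 0.43, FDR = 0.0770) in MM1R and 0.97 (SE 0.42, FDR = 0.207) in MM1S on the log2 scale, and averaged over both lines *ASNS* rose by 1.20 (SE 0.30, FDR = 0.0131). With the passage block the MM1R value was 1.38 (FDR = 0.0372). Fer-1 and RSL3 over untreated was 1.32 (FDR = 0.0660) in MM1R, which passed with the block (FDR = 0.0320), and 0.86 (FDR = 0.277) in MM1S. These were the widest standard errors among the 10 genes.

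The annotation used here places pseudogenes of *ASNS*, *PSAT1*, *PSPH*, *MTHFD2* and *SLC7A5* elsewhere in the genome. The table had rows for *ASNSP1* and *MTHFD2P1*, both at 0 counts in all libraries, and for *SLC7A5P2*, at no more than 1 count. Genes on the same strand overlap *ASNS* (ENSG00000284707) and *MTHFD2* (ENSG00000279201), whose reads strand could not separate, and genes on the opposite strand overlap *SHMT2* (*NDUFA4L2*), *MTHFD2* (*SLC4A5*) and *SLC38A2* (*SLC38A2-AS1*), among others. Whether the counting used strand is not given in the sources used here, so reads of the opposite-strand pairs may be mixed too.

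Of the carriers, SLC7A5 is the light chain of the LAT1 exchanger, which imports large neutral amino acids such as leucine. *SLC7A5* (chr16:87863629-87903113, minus strand) was at 306, 343 and 367 CPM in untreated MM1R cells, at 501, 455 and 755 CPM after RSL3 and at 560, 641 and 651 CPM after Fer-1 and RSL3. The MM1S libraries gave 275, 578 and 438 CPM, then 1280, 702 and 670 CPM, then 715, 948 and 814 CPM. The untreated libraries lay below all treated ones in each line, and RSL3 replicate 1 of MM1S was the highest of all 18. *SLC7A5* rose after RSL3 in MM1S by 1.04 (SE 0.27, FDR = 0.0401) on the log2 scale, and in MM1R the value was 0.75 (SE 0.26, FDR = 0.133). Without MM1S RSL3 replicate 1 the MM1S value was 0.68 (FDR = 0.218). The MM1S call held in 9 of the 18 fits that left out 1 library, and was also lost without untreated MM1S replicate 1 or 3, MM1S Fer-1 and RSL3 replicate 2 or 3, any MM1R Fer-1 and RSL3 library, or untreated MM1R replicate 2, with log2 values of 0.68 to 1.32. Averaged over both lines the rise was 0.90 (SE 0.19, FDR = 0.00449), and it was called in all 18 of those fits. Fer-1 and RSL3 over untreated was 0.87 (FDR = 0.0501) in MM1R and 0.94 (FDR = 0.0529) in MM1S, and both passed with the passage block, at FDR = 0.0305 and 0.0294.

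SLC7A1, also called CAT1, carries arginine, lysine and ornithine. *SLC7A1* (chr13:30083551-30169825, minus strand) was at 80.0, 96.2 and 76.6 CPM in untreated MM1R cells, at 139, 129 and 146 CPM after RSL3 and at 167, 173 and 185 CPM after Fer-1 and RSL3. In MM1S it was at 90.4, 154 and 121 CPM, then 182, 189 and 173 CPM, then 201, 218 and 223 CPM. The untreated, RSL3 and Fer-1 and RSL3 libraries of *SLC7A1* were fully separate and in that order in both lines. The rise after RSL3 was 0.71 (SE 0.15, FDR = 0.0136) in MM1R and 0.58 (SE 0.14, FDR = 0.0377) in MM1S on the log2 scale. The MM1R call was lost without RSL3 replicate 1 or 3 or untreated replicate 1 or 3 of MM1R (FDR up to 0.0691). The MM1S call was lost without RSL3 replicate 1 or 2, untreated replicate 1 or 3 or Fer-1 and RSL3 replicate 2 of MM1S, or Fer-1 and RSL3 replicate 3 of MM1R (FDR up to 0.164). The log2 fold change stayed at 0.65 to 0.82 in MM1R and 0.40 to 0.78 in MM1S. Fer-1 and RSL3 raised *SLC7A1* over untreated by 1.05 (SE 0.15, FDR = 0.000693) and 0.81 (SE 0.15, FDR = 0.00412), and each of the 18 fits without 1 library made both calls.

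SLC38A2, also called SNAT2, couples the uptake of small neutral amino acids to sodium and is induced when cells lack amino acids. *SLC38A2* (chr12:46751971-46766556, minus strand) was at 476, 294 and 193 CPM in untreated MM1R cells, at 753, 432 and 839 CPM after RSL3 and at 627, 612 and 707 CPM after Fer-1 and RSL3. Those of MM1S were at 389, 500 and 356 CPM, then 1600, 605 and 580 CPM, then 824, 692 and 741 CPM. RSL3 replicate 1 of MM1S was again far above the other libraries, and RSL3 replicate 2 of MM1R lay below the highest untreated library. RSL3 over untreated was 1.07 (SE 0.36, FDR = 0.113) in MM1R and 1.16 (SE 0.36, FDR = 0.0791) in MM1S on the log2 scale, and 0.52 (FDR = 0.504) in MM1S without that library. Averaged over both lines *SLC38A2* rose by 1.12 (SE 0.25, FDR = 0.00748), or by 0.80 (FDR = 0.0119) without MM1S RSL3 replicate 1. With the passage block the MM1R value passed for RSL3 (FDR = 0.0473) and for Fer-1 and RSL3 (1.06, FDR = 0.0336, against 1.01 and FDR = 0.0870 without it).

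SLC1A5, also called ASCT2, exchanges glutamine and other neutral amino acids. *SLC1A5* (chr19:47278140-47291851, minus strand) was at 453, 550 and 535 CPM in untreated MM1R cells, at 606, 692 and 712 CPM after RSL3 and at 709, 727 and 770 CPM after Fer-1 and RSL3. The levels in MM1S were 451, 822 and 610 CPM, then 680, 898 and 831 CPM, then 800, 989 and 850 CPM. Its differences were small and even, with log2 fold changes of RSL3 over untreated of 0.39 (SE 0.17, FDR = 0.232) in MM1R and 0.36 (SE 0.17, FDR = 0.263) in MM1S. The average over both lines was 0.37 (SE 0.12, FDR = 0.0463), a call that held in only 2 of the 18 fits without 1 library, those without MM1S RSL3 replicate 1 or untreated MM1S replicate 2 (log2 0.27 to 0.49, FDR up to 0.106). With the passage block it passed in each line, at FDR = 0.0201 and 0.0227. Fer-1 and RSL3 over untreated was 0.52 (FDR = 0.0663) and 0.49 (FDR = 0.116), and with the block both lines passed, at FDR = 0.00238 and 0.00386.

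**Figure D2:**
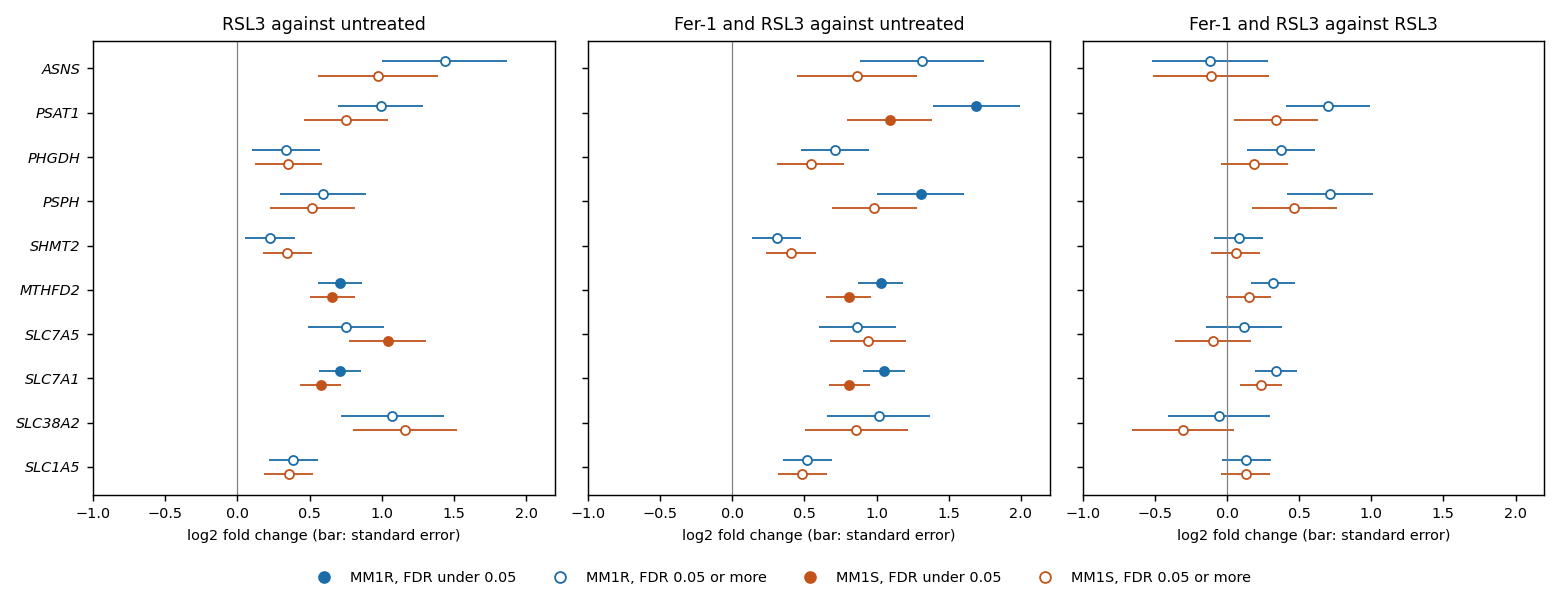
Fitted log2 fold change (x axis) of each gene (y axis) in 3 comparisons, for MM1R in blue and MM1S in orange, with bars for the standard error and filled points for an FDR under 0.05 in the edgeR fit without the passage block. All points lie above 0 in the comparisons with untreated cells, and none is filled for Fer-1 and RSL3 against RSL3.

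Fer-1 was added before RSL3 to ask which RSL3 responses depend on lipid peroxidation. For Fer-1 and RSL3 against RSL3, DESeq2 called none of the 10 genes in either line or on average. Neither did edgeR with the filter on low counts and no passage block, where 0%, 0% and 0.014% of all genes were called higher. Without the filter, some of the 10 were called in MM1R and on average, as counted in the last section. At an unadjusted p under 0.05, 3 of the 10 were higher in MM1R (3.75% of all genes) and 0 in MM1S (2.29%), and 4 were higher on average (6.59%). The 4 were *PSPH* with a log2 fold change of 0.59 (SE 0.21, FDR = 0.256), *PSAT1* with 0.52 (SE 0.21, FDR = 0.310), *SLC7A1* with 0.29 (SE 0.10, FDR = 0.257) and *MTHFD2* with 0.23 (SE 0.11, FDR = 0.383). With the passage block *PSPH* rose on average by 0.63 (FDR = 0.0259), where 1.15% of all genes were called higher, and the others were not called. Within a single line 0 of 10 were called with the block (0.056% of all genes in MM1R and 0.007% in MM1S). *ASNS*, *SLC38A2* and *SLC7A5* had average values of -0.12, -0.18 and 0.01, with no stable direction. Without MM1S RSL3 replicate 1, *ASNS* was at 0.13 and *SLC38A2* at 0.14, and *SLC7A5* lay between -0.07 and 0.18 as single libraries were left out. None was called lower with Fer-1 than with RSL3 alone, where 0% of all genes were in each line and 0.105% on average. The Fer-1 and RSL3 libraries lay above every RSL3 library for 6 genes in MM1R, *PHGDH*, *PSAT1*, *PSPH*, *SHMT2*, *MTHFD2* and *SLC7A1* (6.96% of all genes), and for *MTHFD2* and *SLC7A1* in MM1S (4.62%). For *MTHFD2* in MM1S replicate 1, both levels round to 574 CPM. In the normalized values deposited by the authors their order was reversed, with 10470 after RSL3 and 10380 after Fer-1 and RSL3. The MM1R libraries include Fer-1 and RSL3 replicate 2, the library with line genes at a median of 49.3% of their MM1S level. The mean of each of the 10 genes was higher in untreated MM1S than in untreated MM1R, but the libraries of the 2 lines overlapped for all 10. The passage of this library, 6, had the largest median log2 step of MM1R, 0.431 against 0.243 and 0.198. Whether the makeup of this library adds to the step was not tested. Without that library the MM1R log2 fold change was 0.77 for *PSPH*, 0.68 for *PSAT1*, 0.35 for *SLC7A1*, 0.30 for *MTHFD2* and 0.29 for *PHGDH*, and none of the 10 genes was called.

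Compared with untreated cells, the cells given Fer-1 and RSL3 had higher levels of 4 of the 10 genes in MM1R, *MTHFD2*, *PSAT1*, *PSPH* and *SLC7A1*, where 5.57% of all genes were called higher, and of 3 in MM1S, *MTHFD2*, *PSAT1* and *SLC7A1* (2.6% of all genes). These last 3 were called in each line, as were 1.97% of all genes. This comparison and that of RSL3 with untreated share the untreated libraries. The median log2 fold change over the 10 genes was 1.02 in MM1R and 0.835 in MM1S. The MM1R libraries did not overlap for any of the 10 genes (16.5% of all genes), nor the MM1S libraries for 7 (14.7%). MM1R Fer-1 and RSL3 replicate 2, with line genes at a median of 49.3% of their MM1S level, was also left out. The log2 fold changes in MM1R were then 1.67 for *PSAT1* (FDR = 0.0116) and 1.36 for *PSPH* (FDR = 0.0312). They were 1.01 for *MTHFD2* (FDR = 0.00565) and 1.06 for *SLC7A1* (FDR = 0.00285).

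Within passages, RSL3 was above untreated in 6 of 6 passages for 9 genes and in 5 of 6 for *ASNS*, where 13.8% of all genes were above in all 6. Fer-1 and RSL3 was above RSL3 in 6 of 6 passages for *PSAT1*, *PHGDH*, *PSPH*, *MTHFD2*, *SLC7A1* and *SLC1A5* (8.05% of all genes), in 5 for *SHMT2*, in 4 for *SLC7A5*, and in 3 for *ASNS* and *SLC38A2*. The *MTHFD2* step in passage 16 was only just above 0, at a log2 ratio of 0.00115, and its order was reversed in the authors' normalized values. On TMM-scaled CPM, the 6 genes from *PSAT1* to *SLC1A5* were above in both steps in all 6 passages, as 1.24% of all genes were. The group mean rose from untreated to RSL3 and on to Fer-1 and RSL3 in both lines for 7 genes, all but *ASNS*, *SLC7A5* and *SLC38A2* (10.2% of all genes). No test was run on these counts, and the RSL3 libraries enter both steps.

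The size of the RSL3 step differed between passages. Its median log2 ratio over the 10 genes, taken on CPM with 0.5 added, was 0.686, 0.416 and 0.878 in MM1R passages 4, 6 and 7, and 1.12, 0.227 and 0.601 in MM1S passages 16, 22 and 23. Passage 22 had the smallest step and the highest untreated level of all 10 genes among the MM1S passages. Passage 16 had the largest step, with log2 ratios of 2.22 for *SLC7A5* and 2.04 for *SLC38A2*, and it is the passage of the RSL3 library with the lowest scaling factor. In passage 16 the step from RSL3 to Fer-1 and RSL3 was negative for *ASNS* (-0.88), *SLC7A5* (-0.84) and *SLC38A2* (-0.96), while it was 0.93 for *PSPH* and 0.60 for *PSAT1*.

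**Figure D3:**
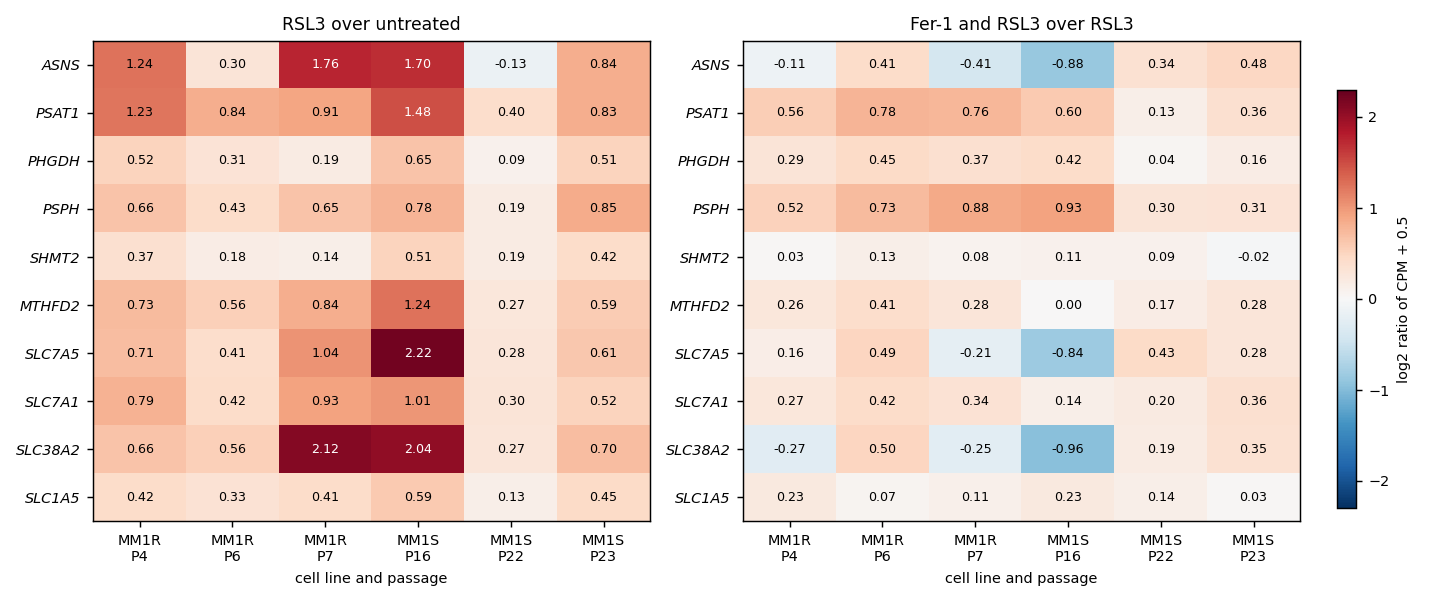
Log2 ratio of CPM with 0.5 added for each gene (y axis) in each line and passage (x axis, P is the passage), for RSL3 over untreated on the left and for Fer-1 and RSL3 over RSL3 on the right, with red above 0 and blue below 0. The left panel has 1 value below 0, *ASNS* at -0.13 in passage 22, and the right panel has its most negative values in passage 16, for *ASNS*, *SLC7A5* and *SLC38A2*.

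The untreated lines were compared to describe the level of these genes in each. With 1 line of each kind and no shared passage number, resistance to dexamethasone cannot be told apart from other differences between the lines. All 10 had a lower mean in MM1R, with a median log2 difference of -0.448 over the 10 genes and of -0.0111 over all genes. MM1S untreated replicate 2 was the highest untreated MM1S library for all 10 genes. Without it the value was 0.012 for *PSPH* and 0.011 for *SHMT2*, and the other genes kept their sign. *SLC7A1* was called lower in MM1R, at -0.53 (SE 0.15, FDR = 0.0274), 1 of 10 genes where 4.99% of all genes were called lower, and 0 were called higher in MM1R (5.5% of all genes). That call was lost without MM1R untreated replicate 1 or 3 or MM1S untreated replicate 2 or 3, and without MM1S replicate 2 the value was -0.32 (FDR = 0.201). The largest difference was that of *PSAT1*, -0.90 (SE 0.29, FDR = 0.0618). For none of the 10 genes did all MM1R libraries lie below all MM1S libraries, as they did for 16.7% of all genes. None of the 10 genes was called for a line difference in the RSL3 response by the edgeR interaction test. The same held for the step from RSL3 to Fer-1 and RSL3, and no gene at all was called in either interaction. The standard errors of the RSL3 interaction were 0.20 (*SLC7A1*) to 0.60 (*ASNS*), so these tests do not show that the responses were equal. At an unadjusted p under 0.05, none of the 10 passed either interaction, and the FDR was 0.9999 for each. Of all genes, 0.903% passed as higher and 0.651% as lower for the RSL3 response. For the step from RSL3 to Fer-1 and RSL3 the shares were 0.651% and 0.245%. DESeq2 also called none of the 10. A passage block could not be fitted for the untreated lines, which share no passage number. Both interactions could be fitted with the block, and no gene was called in either.

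A list of 35 other genes of amino acid transport, amino acid synthesis and the folate cycle was examined beside them, of which 33 passed the filter. Its median log2 fold change for RSL3 over untreated was 0.011 in MM1R and 0.0995 in MM1S, against 0.712 and 0.617 for the 10 genes. In MM1R 4 of the 33 rose (*SLC7A11*, *SLC3A2*, *CTH*, *GLUL*) and 1 fell (*SLC25A22*), and in MM1S 3 rose (*SLC7A11*, *SLC3A2*, *CTH*) and 0 fell. Of all genes, 2% and 2.5% were called higher and 1.36% and 1.17% lower. Averaged over both lines, 5 of 33 (15.2%) rose and 1 fell, *SLC25A22*, where 8.7% of all genes were called higher and 6.81% lower. After Fer-1 and RSL3 against untreated, 7 rose and 1, *SLC25A22*, fell in MM1R (5.57% of all genes higher and 3.66% lower), and 2 rose in MM1S (2.6% of all genes higher). None was called between RSL3 and Fer-1 and RSL3 in either direction. Of all genes, 0% were called in each line, and 0.014% higher and 0.105% lower on average.

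The cystine importer xCT is made of SLC7A11 and the heavy chain SLC3A2, and SLC3A2 is also the heavy chain of LAT1 and so the partner of SLC7A5. *SLC7A11* was at 9.15, 11.4 and 6.20 CPM in untreated MM1R cells, 54.7, 37.3 and 61.6 CPM after RSL3 and 73.1, 73.7 and 91.7 CPM after Fer-1 and RSL3. It rose after RSL3 by 2.52 (SE 0.36, FDR = 0.00309) in MM1R and 2.01 (SE 0.34, FDR = 0.00612) in MM1S on the log2 scale. *SLC3A2* was at 99.1, 246 and 170 CPM in untreated MM1S cells, 801, 461 and 402 CPM after RSL3 and 685, 696 and 545 CPM after Fer-1 and RSL3, and the treated and untreated libraries did not overlap. It rose after RSL3 by 1.55 (SE 0.29, FDR = 0.00923) in MM1R and 1.69 (SE 0.29, FDR = 0.00577) in MM1S, where its partner *SLC7A5* had 0.75 and 1.04.

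*CTH*, which makes cysteine from cystathionine, rose by 1.69 (FDR = 0.0214) in MM1R and 1.68 (FDR = 0.0220) in MM1S, from 3.26 to 4.78 CPM in the untreated libraries of the 2 lines. In MM1S its RSL3 level was 21.8 CPM in replicate 1 and 6.66 and 6.24 CPM in the others. *SLC25A22*, a mitochondrial glutamate carrier, fell by 0.70 (SE 0.14, FDR = 0.0129) in MM1R, and its MM1S value was -0.43 (SE 0.14, FDR = 0.0976). *SLC7A6*, another amino acid exchanger that pairs with SLC3A2, was at -0.41 (SE 0.14, FDR = 0.0606) for RSL3 averaged over the lines and did not pass. *GLUL*, which makes glutamine, rose after RSL3 in MM1R by 0.64 (SE 0.16, FDR = 0.0333), and its MM1S value was 0.29 (SE 0.15, FDR = 0.331). *ALDH1L2*, a mitochondrial folate enzyme beside MTHFD2, rose after RSL3 on average by 0.86 (SE 0.25, FDR = 0.0314).

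The *ATF4* transcript and its partner and target genes were read as a separate list of 15, of which 11 passed the filter. After RSL3 7 of the 11 rose in each line, where 2% and 2.5% of all genes were called higher, and 9 on average (8.7% of all genes). None was called between RSL3 and Fer-1 and RSL3, where 0% of all genes in each line and 0.014% on average were called higher. *ATF4* itself was at 487, 523 and 505 CPM in untreated MM1R cells, 953, 868 and 977 CPM after RSL3 and 939, 809 and 919 CPM after Fer-1 and RSL3. In MM1S it was at 435, 865 and 549 CPM, then 1440, 1060 and 1020 CPM, then 914, 1190 and 1030 CPM. *ATF4* rose after RSL3 by 0.89 (SE 0.19, FDR = 0.0207) and 0.93 (SE 0.19, FDR = 0.0171) on the log2 scale. From RSL3 to Fer-1 and RSL3 its average was -0.12 (SE 0.14, FDR = 0.772). ATF4 protein was not measured.

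*DDIT3*, which encodes the ATF4 partner CHOP, rose after RSL3 by 2.56 (SE 0.41, FDR = 0.00467) in MM1R and 2.53 (SE 0.40, FDR = 0.00424) in MM1S. *TRIB3*, a feedback inhibitor of ATF4, rose on average by 0.65 (SE 0.16, FDR = 0.0132). *CHAC1*, which degrades glutathione, was at 8.94, 12.9 and 8.86 CPM in untreated MM1R cells, 76.7, 65.6 and 112 CPM after RSL3 and 197, 135 and 262 CPM after Fer-1 and RSL3. In MM1S it was at 4.66, 58.7 and 16 CPM, then 76.7, 97.3 and 132 CPM, then 215, 308 and 253 CPM. The 3 groups were separate and in the same order in both lines. The step from RSL3 to Fer-1 and RSL3 in *CHAC1* was 1.28 on average (SE 0.38, unadjusted p = 0.00353, FDR = 0.184 by edgeR) and did not pass. The list had no common direction at this step. At an unadjusted p under 0.05, 2 of the 11 were higher on average, *CHAC1* and *TRIB3* (6.59% of all genes), and 2 were lower (6.2% of all genes), the stress-induced factor *ATF3* at -1.21 (SE 0.52, FDR = 0.347 by edgeR) and *PPP1R15A*, which brings a phosphatase to eIF2α, at -1.06 (SE 0.43, FDR = 0.316 by edgeR). *ATF3* after RSL3 was highest in MM1S replicate 1, at 1860 CPM, against 255 and 240 CPM in the other MM1S replicates.

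**Figure D4:**
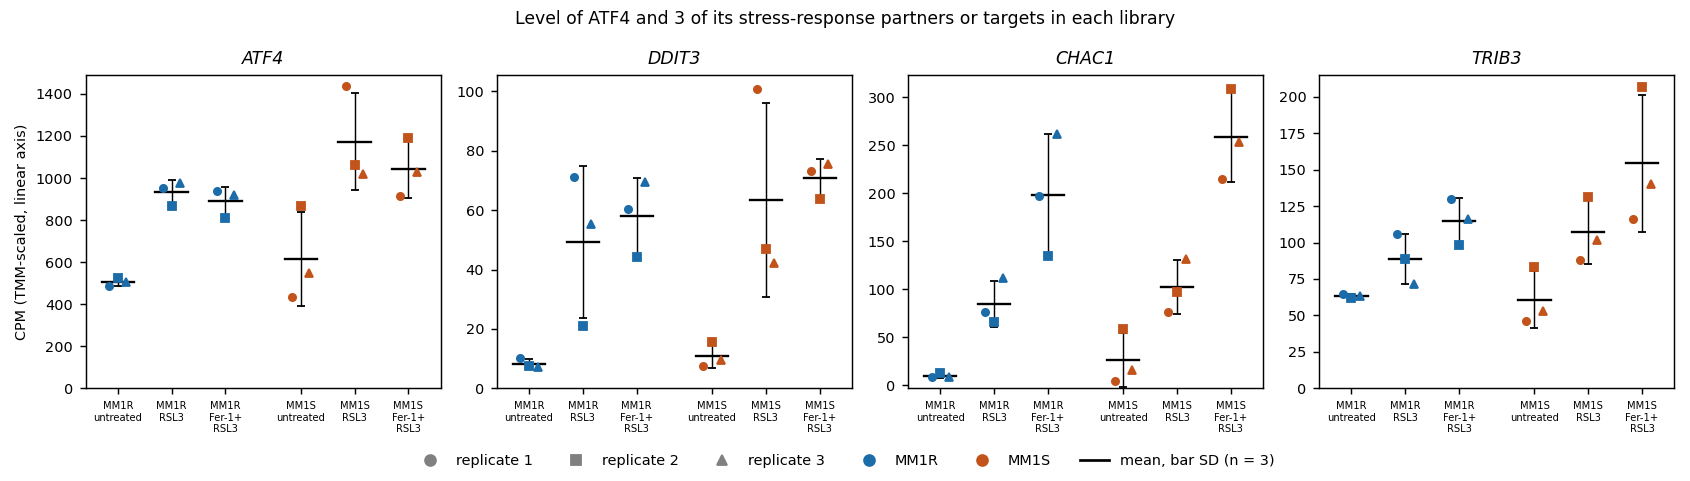
CPM of *ATF4*, *DDIT3*, *CHAC1* and *TRIB3* (linear y axis) in each library of the 6 groups (x axis), with 1 symbol per replicate, a line for the mean and a bar for the SD (n = 3). *ATF4* is at 809 to 1440 CPM in the treated libraries of both lines, while *CHAC1* separates RSL3 (65.6 to 132 CPM) from Fer-1 and RSL3 (135 to 308 CPM).

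How far the 10 genes varied together was described over the 18 libraries, on log2 CPM centred on each line. The correlation of a gene with the mean of the other 9 was 0.976 for *MTHFD2*, 0.971 for *SLC7A1* and 0.953 for *PSAT1*, and lowest for *ASNS* (0.739) and *SLC38A2* (0.66), with the other 5 between 0.832 and 0.912. The libraries share treatments and passages, so these values describe the set and carry no test. Among all other genes tested, the 5 whose pattern was most like the mean of the 10 were *CHAC1* (r = 0.973), *GARS* (0.969), *ADM2* (0.967), *TARS* (0.963) and *GLB1L3* (0.962). *GARS* and *TARS* encode the aminoacyl-tRNA synthetases for glycine and threonine, and *ADM2* encodes a secreted peptide of the calcitonin family.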

How the data were processed

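RNA of 18 libraries was read by the authors on a BGISEQ-500 as 50 bp paired ends. Reads passed FastQC 0.11.5 and were aligned to hg19 by STAR 2.7.3a. The deposited files are raw counts for 43735 genes and a normalized signal for 29553 genes, equal to the count over 1 size factor per library (0.834 to 1.08). The counting tool, annotation and use of strand are not given in the sources used here.

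Genes were filtered with filterByExpr (minimum count 10), scaled by TMM and tested with edgeR 4.0.16's quasi-likelihood test under R 4.3.3, in 1 model of 6 group means (12 residual degrees of freedom), with Benjamini-Hochberg adjustment over the 14281 genes tested. The script was tested on simulated data. A call is an FDR under 0.05. Log2 ratios and correlations used CPM with 0.5 added and log2 CPM with a prior count of 2. Gene positions and canonical transcript lengths came from GENCODE lifted to GRCh37, promoters from RefSeq. Total counts per library were 17635438 to 19368343.

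The passage numbers in the labels pair the libraries within a line. Same-passage libraries deviated together, with a median correlation of 0.25 in MM1R (0.0338 to 0.516, 9 pairs) and 0.416 in MM1S (0.216 to 0.681, 9 pairs). The fit with passage as a block (8 residual degrees of freedom) was an alternative, as were DESeq2 1.42.0, limma 3.58.1 on the authors' normalized values, RLE and upper-quartile scaling, other filters, a fold threshold, only the groups compared, and each library left out.

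The genes and lists were chosen with earlier results of these data known. All 10 genes were named. Of the related genes, those called in both lines or with the 3 smallest FDR per direction for RSL3 averaged over the lines were named, with *GLUL* and *ALDH1L2*, chosen after their values were seen, and 1 gene is not reported here. Of the ATF4 list, *ATF4*, *DDIT3*, *TRIB3* and *CHAC1* were named, with *ATF3* and *PPP1R15A*, chosen after their values were seen, and of all other genes the 5 with the highest correlation with the mean of the 10 genes.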

Additional observations from a re-analysis of the deposited data

How the results depend on the processing

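The counts of the 10 genes called depended on the model more than on the scaling. RLE and upper-quartile scaling and a filter of 1 CPM in 9 libraries kept each count within 1.5 times. Of RSL3 against untreated, where 2 genes were called in MM1R, 3 in MM1S and 7 on average, MM1R gave 5 with DESeq2, 7 without a filter on low counts, 7 with passage as a block, 4 with only the groups compared, 0 with a log2 fold change over 1, and 6 without MM1R Fer-1 and RSL3 replicate 2 and MM1S RSL3 replicate 1, an alternative chosen after seeing the data. MM1S gave 6 without the filter, 7 with the block, 0 with only the groups compared, 1 with the fold threshold and 0 without those 2 libraries, and the average gave 2 with the fold threshold. Of Fer-1 and RSL3 against RSL3, where 0 genes were called, 2 were called in MM1R and 2 on average without the filter, and 1 on average with the block (1.15% of all genes called higher). The share of all genes called without the filter is not given here, so those calls cannot be set against it. Of Fer-1 and RSL3 against untreated, the 4 in MM1R became 9 with DESeq2, 9 without the filter, 10 with the block, 9 with only the groups compared and 7 without those 2 libraries. The 3 in MM1S became 5 with DESeq2, 8 without the filter, 8 with the block, 1 with the fold threshold, 5 with limma and 5 without those 2 libraries. Of the untreated lines, the 1 gene became 2 with DESeq2, 4 without the filter, 0 with only the groups compared and 0 with the fold threshold. The cause of these moves was not tested, other than that the fold threshold is a stricter call. The share of all genes called higher moved too. For RSL3 against untreated it went from 2% in MM1R and 2.5% in MM1S to 3.85% and 4.8% with DESeq2. With the block it was 6.83% and 6.79%. For Fer-1 and RSL3 against untreated it went from 5.57% and 2.6% to 7.25% and 4.68% with DESeq2, and to 11.5% and 7.16% with the block. Shares for the other alternatives are not given here, so those counts describe the fits only. The block changed no other count by more than 1.5 times, and both interactions stayed at 0 in every alternative.

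When each library was left out in turn, the counts were 0 to 6 in MM1R and 0 to 6 in MM1S for RSL3 against untreated, with the highest without MM1S RSL3 replicate 1 and without MM1S untreated replicate 2. They were 3 (without MM1R untreated replicate 3) to 9 (without MM1S RSL3 replicate 1) in MM1R and 2 to 8 (without MM1S untreated replicate 2) in MM1S for Fer-1 and RSL3 against untreated, and 0 to 5 (without MM1S untreated replicate 1) for the untreated lines.

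Over 90 pairs of gene and comparison and 2510 alternative values, 31 turned sign, none of them called. Without those 2 libraries, Fer-1 and RSL3 against RSL3 was 0.060 for *ASNS* in MM1R, 0.40 for *ASNS*, -0.049 for *SHMT2*, 0.27 for *SLC7A5* and 0.34 for *SLC38A2* in MM1S, and 0.23 for *ASNS* and 0.16 for *SLC38A2* on average. *SLC7A5* was -0.00073 on average with the filter of 1 CPM in 9 libraries. With single libraries left out, the same comparison ran from -0.46 to 0.10 (*ASNS*), -0.29 to 0.12 (*SLC38A2*) and -0.023 to 0.35 (*SLC7A5*) in MM1R, from -0.32 to 0.40 (*ASNS*), -0.55 to 0.34 (*SLC38A2*), -0.26 to 0.27 (*SLC7A5*) and -0.095 to 0.20 (*SHMT2*) in MM1S, and from -0.28 to 0.13 (*ASNS*), -0.30 to 0.14 (*SLC38A2*), -0.075 to 0.18 (*SLC7A5*) and -0.0063 to 0.14 (*SHMT2*) on average. The untreated lines ran from -0.87 to 0.012 for *PSPH* and from -0.42 to 0.011 for *SHMT2*. *ASNS* had the lowest counts of the genes described, at 18 to 99 per library. Its standard error for RSL3 against untreated was 0.43 in MM1R and 0.42 in MM1S. That of *SLC38A2*, at 3324 to 24398 counts per library, was 0.36 in each line. How much of the *ASNS* error comes from low counts, and how much from the spread between libraries, was not tested.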
